A study of Mus musculus with 18 samples.

Results

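Receptors for GABA, glycine and glutamate were examined in dorsal root ganglia (DRG), the ganglia that hold the cell bodies of sensory neurons, from mice that lack 1 of 3 sodium channels. The genes were chosen by name: each measured gene whose symbol marks it as a subunit of a GABA-A, GABA-B, glycine, AMPA, kainate, delta or NMDA receptor, or as a metabotropic glutamate receptor. This gave 43 of the 18193 genes measured, among them 15 GABA-A subunits, 1 GABA-B subunit (*Gabbr1*), 5 glycine receptor subunits, 4 AMPA, 5 kainate, 1 delta (*Grid1*) and 6 NMDA receptor subunits, and 6 metabotropic glutamate receptors. Some genes of these families were not analysed here, among them *Grin1* and *Gabbr2*, which encode obligatory partners in NMDA and GABA-B receptors.

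GABA-A and glycine receptors are chloride channels opened by their transmitter, and GABA-B receptors act through G proteins. On the central endings of sensory neurons GABA depolarizes the terminal and reduces transmitter release, which is known as presynaptic inhibition. AMPA, kainate and NMDA receptors are cation channels opened by glutamate, the transmitter that sensory neurons themselves release, and the metabotropic receptors signal through G proteins. In DRG the kainate receptor of small-diameter neurons is built largely on the subunit that *Grik1* encodes.

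Whole DRG were collected from adult mice at every spinal level, and their RNA was hybridized to 18 Affymetrix mouse arrays. There were 6 groups of 3 arrays: Nav1.7 KO, Nav1.8 KO and Nav1.9 KO, each with its own littermates. Nav1.7 KO mice carried floxed *Scn9a* and Cre recombinase driven from the advillin gene *Avil*, which removes the channel from sensory neurons, whereas Nav1.8 (*Scn10a*) and Nav1.9 (*Scn11a*) KO mice were global null mutants. The groups are described as 3 mice each, and the labels do not tie an array to a mouse, so that p-values measure the spread between these samples. Values are log2 intensities, and each gene was read from its brightest probe set. A gene was called when its p-value from limma, adjusted over all 18193 genes, was under 0.05. The number of arrays limits the precision. In whole ganglia, fewer cells of a type and less RNA per cell cannot be told apart.

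The arrays had medians from 6.33 to 6.36, and replicates correlated at 0.996 to 0.998. *Scn10a* was 2.98-fold lower in Nav1.8 KO DRG and *Scn11a* 3.62-fold lower in Nav1.9 KO DRG, whereas *Scn9a* differed by -0.06 in Nav1.7 KO DRG (adjusted p = 0.642). In Nav1.7 KO DRG the driver gene *Avil* was itself 1.56-fold lower, so that loss of Nav1.7, Cre and a lower *Avil* cannot be told apart there. All 10 markers of DRG neurons were measured. The 9 measured markers of spinal cord and brain tissue averaged 5.16 to 5.40 in the 18 arrays, and none was called in a KO comparison. *Xist*, which is expressed from the inactive X chromosome, was high in 7 arrays and low in 11. It was high in 2 of 3 Nav1.7 KO arrays and 3 of 3 Nav1.7 littermates, in 2 of 3 Nav1.8 KO arrays and 0 of 3 Nav1.8 littermates, and in none of the 6 arrays of the Nav1.9 line.

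In Nav1.7 KO DRG, 2 of the 43 receptor genes fell, *Grik1* and *Gabrb2*, and 0 rose. Over all genes 4.33% were called in this comparison, 2.51% as lower, so that 2 of 43 (4.65%) is close to the background. None was called higher, against 1.81% of all genes. The median log2 fold change of the receptor genes was -0.06, against 0.01 over all genes, and 26 of 43 were below 0. KO and littermate arrays did not overlap for 11 receptor genes (25.6%, against 20.4% of all genes), of which 8 were lower in all KO arrays (18.6%, against 9.61%) and 3 higher (6.98%, against 10.8%). At an unadjusted p under 0.05 the share was 16.3% among receptor genes and 16.3% among all genes.

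*Grik1*, the kainate receptor subunit GluK1, had the largest fold change of the 43 genes in any of the 3 lines. In Nav1.7 KO DRG it was 10.81, 10.64 and 10.87, against 11.65, 11.67 and 11.57 in littermates. Every KO array lay below every littermate array, with a wide gap. The log2 fold change was -0.86 (SE 0.0811, adjusted p = 8.35e-06 from limma), which is 1.81-fold lower. In the Nav1.8 line *Grik1* was 11.50, 11.75 and 11.71 in KO DRG and 11.59, 11.57 and 11.67 in littermates, and in the Nav1.9 line 11.54, 11.58 and 11.65 in KO DRG and 11.44, 11.67 and 11.36 in littermates. Neither of these KO groups stood apart from its littermates, and the Nav1.7 KO arrays were the lowest 3 of the 18. The difference itself was tested: the Nav1.7 effect was 0.90 log2 units below the Nav1.8 effect (difference -0.90, SE 0.115, adjusted p = 0.000409) and 0.96 below the Nav1.9 effect (difference -0.96, SE 0.115, adjusted p = 0.000184). In the first of these comparisons of lines 1 receptor gene was called (2.33%, against 2.15% of all genes), and in the second 2 were (4.65%, against 2.82%). Between the Nav1.8 and Nav1.9 effects 0 receptor genes were called by limma (0.0385% of all genes), and 4 had an unadjusted p under 0.05 (9.3%, against 9.04%).

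*Grik1* stayed called without each single array, and its log2 fold change then lay between -0.91 and -0.79. A second, dimmer probe set gave the same size in the Nav1.7 line, with 8.59, 8.66 and 8.74 in KO DRG against 9.48, 9.53 and 9.55 in littermates, again with no overlap. In the Nav1.9 line, however, that probe set read 8.51, 8.77 and 4.14 in KO DRG and 4.07, 8.51 and 4.13 in littermates. It thus fell near the floor of the array in 3 of 6 arrays, 1 KO and 2 littermates, while the brighter probe set of *Grik1* did not separate these arrays. Of the 45037 probe sets it was the only one that parted the same 3 arrays from the other 3 by more than 1 log2 unit, a search made after its values were seen. The error is pooled over all groups, and the log2 fold change of -0.86 at this probe set had an SE of 1.05 and did not pass (adjusted p over probe sets = 0.798). Averaging both probe sets gave -0.86 and ended the *Grik1* call (SE 0.544, adjusted p = 0.494).

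**Figure D1:**
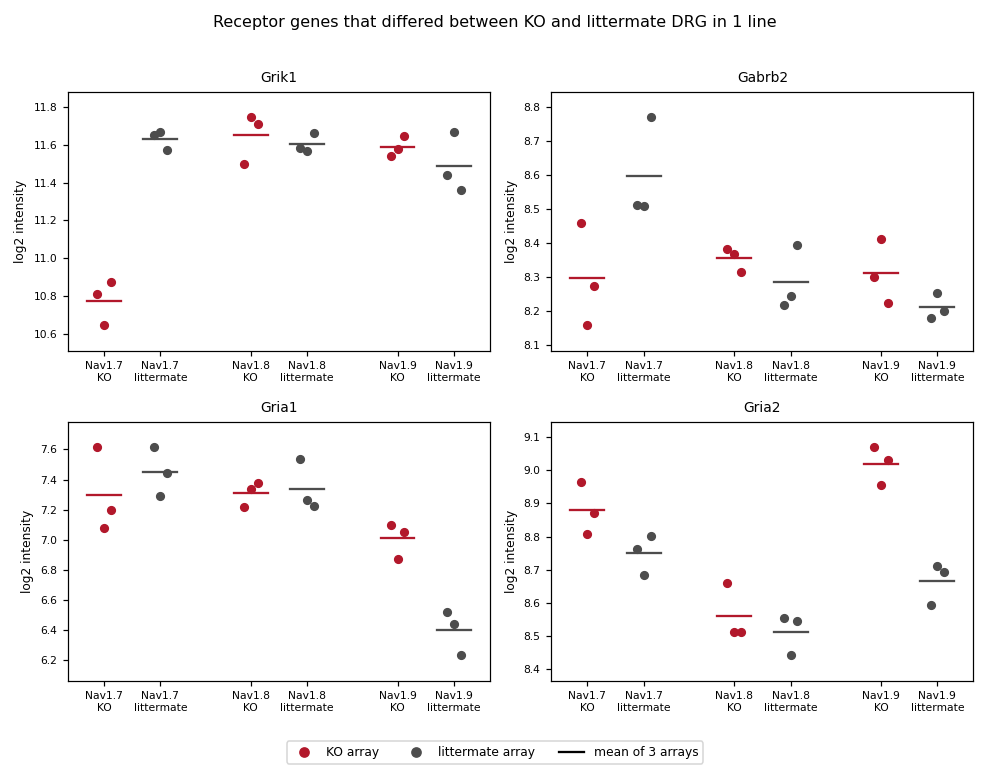
Log2 intensity of the 4 called receptor genes on each array (points) with the mean of 3 arrays (bars), by group. *Grik1* and *Gabrb2* were lower in Nav1.7 KO than in littermate DRG (by 0.86 and 0.30 log2 units), and *Gria1* and *Gria2* were higher in Nav1.9 KO than in littermate DRG (by 0.61 and 0.35).

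*Gabrb2* encodes the beta2 subunit, which helps to form the GABA binding site of GABA-A receptors. It was 8.46, 8.16 and 8.27 in Nav1.7 KO DRG, against 8.51, 8.51 and 8.77 in littermates. The groups did not overlap, but the highest KO array came within 0.05 of the lowest littermates. The log2 fold change was -0.30 (SE 0.0816, adjusted p = 0.0494 from limma), just inside the threshold, and the call was lost in 14 of the 19 other settings tried. Without littermate replicate 3, the brightest array, it was 0.206, and without KO replicate 2 it was 0.193. All 4 other probe sets of *Gabrb2* were also below 0, at -0.38, -0.33, -0.30 and -0.06, and the first of these passed over all probe sets (adjusted p = 0.0188), so that the direction does not rest on 1 probe set. In the other lines the log2 fold change of *Gabrb2* was 0.07 in the Nav1.8 line and 0.10 in the Nav1.9 line. The Nav1.7 effect differed from these by -0.37 (adjusted p = 0.124) and -0.40 (adjusted p = 0.0813).

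The first of 3 start sites that RefSeq (GRCm38.p6) lists for *Gabrb2* lies on the plus strand of chromosome 11, and its promoter window, chr11:42420190-42420489, covers 250 bases before the start and 50 after it. It is shown because *Gabrb2* is a called gene with a promoter in the RefSeq table, which held 32 of the 43 receptor genes. Capitals mark a GC box (GGGCGG, here on the opposite strand) and a TATA box (TATAAA, 30 bases before the start).
Gabrb2: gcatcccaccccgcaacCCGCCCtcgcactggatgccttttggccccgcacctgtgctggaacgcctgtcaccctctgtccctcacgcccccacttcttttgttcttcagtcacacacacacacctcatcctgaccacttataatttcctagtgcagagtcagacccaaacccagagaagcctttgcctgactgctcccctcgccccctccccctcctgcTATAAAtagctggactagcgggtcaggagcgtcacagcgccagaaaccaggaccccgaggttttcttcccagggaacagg
Of 32851 such windows, 35.7% held GGGCGG and 13.6% held TATAAA on either strand. The cyclic AMP response element TGACGTCA (1.79% of windows), the AP-1 site TGANTCA (7.81%) and the RUNX core TGTGGT (16.8%) were searched on both strands and are not in this window. The matches describe letters and do not show a bound factor.

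Other glutamate receptor genes lay near the threshold in Nav1.7 KO DRG and did not pass. *Grm3*, an inhibitory metabotropic receptor, was 5.80, 6.07 and 6.03 in KO DRG, against 6.41, 6.18 and 6.37 in littermates (log2 fold change -0.36, adjusted p = 0.0585). Its groups did not overlap, but the gene was dim, at the 32.8th percentile of brightness, and it was called in 3 of 18 other settings. *Gria3*, an AMPA subunit, was 8.77, 8.64 and 8.82 in KO DRG and 8.97, 8.83 and 9.01 in littermates (-0.20, adjusted p = 0.146). Its dimmer probe set gave -0.32, and the mean of both passed (adjusted p = 0.0235). *Grin3a*, an NMDA subunit (-0.16), *Grik3*, a kainate subunit (-0.21), *Gabrr1* (-0.14), *Gabre* (0.20), *Grm5* (-0.21) and *Gria2* (0.13) made up the other receptor genes of smallest p, with adjusted p from 0.262 to 0.371.

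*Gabbr1*, the GABA-B subunit that binds GABA, was read differently by its 4 probe sets. The brightest gave 11.89, 11.92 and 11.82 in Nav1.7 KO DRG and 11.85, 11.89 and 11.78 in littermates, with overlap (log2 fold change 0.04, adjusted p = 0.745). A dimmer probe set gave 6.82, 6.74 and 6.82 in KO DRG and 6.24, 6.55 and 6.30 in littermates, with no overlap (0.43, adjusted p over probe sets = 0.0193). The other two gave -0.02 and -0.05. That dimmer probe set also separated the lines: it was 7.61 to 7.65 in Nav1.9 KO DRG and 7.46 to 7.88 in Nav1.9 littermates, above all 12 arrays of the other lines, whereas the brightest probe set spanned only 11.78 to 11.99 in all. What part of the *Gabbr1* transcripts each probe set reads is not given in the sources used here.

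**Figure D2:**
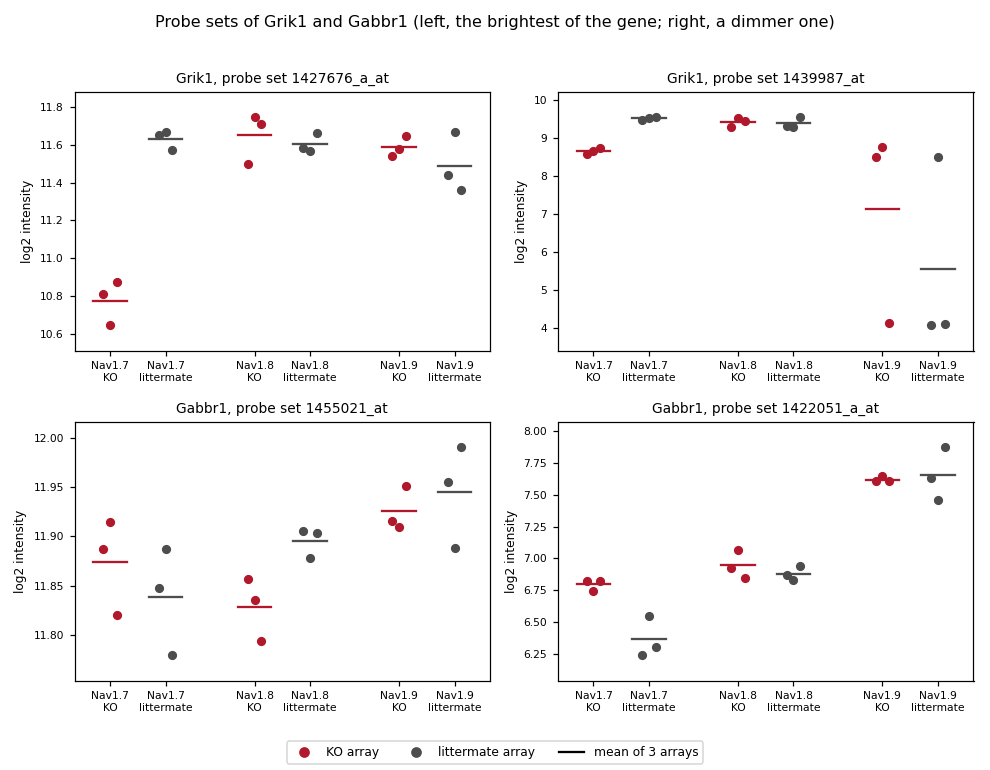
Log2 intensity on each array (points) with the mean of 3 arrays (bars) at the brightest probe set (left) and a dimmer probe set (right) of *Grik1* and *Gabbr1*, by group; the axes differ between panels. The dimmer *Grik1* probe set was near 4.1 in 3 of 6 Nav1.9 line arrays, and the dimmer *Gabbr1* probe set was higher in Nav1.7 KO than in littermate DRG by 0.43 log2 units.

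In Nav1.7 KO DRG some markers of neurons and of other cells differed too. The 10 DRG neuron markers averaged 13.15 to 13.19 in KO arrays, against 13.25 to 13.28 in littermates, and 1 of the 10, *Avil*, was called. That average includes the driver gene *Avil* itself, at a log2 fold change of -0.64, whereas the median of the list was -0.04. The 6 macrophage markers averaged 6.87 to 7.23 in KO arrays and 6.56 to 6.85 in littermates, with 1 of 6 called (*Adgre1*, higher). The 5 measured markers of satellite glia averaged 11.93 over the KO arrays and 11.86 over the littermates, with 1 of 5 called (*Fabp7*, higher). The 4 skeletal muscle markers had a median log2 fold change of 0.77 and none was called. Schwann cells, endothelium and fibroblasts had 4 measured markers each, and none of these was called. The part of these cells in the receptor results was not tested. Of 134 genes within 10 Mb of *Grik1* (RefSeq, GRCm38.p6), 6 (4.48%) were called in this line, against 4.33% of all genes, and of 116 near *Gabrb2*, 1 (0.862%).

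Of 85 genes for transmitter synthesis and transport, chloride transport and receptor anchoring, 76 were measured, and in Nav1.7 KO DRG 2 rose and 4 fell (7.89% called, against 4.33% of all genes). The largest was *Gabarapl1*, a relative of the GABA-A receptor-associated protein that also acts in autophagy, with 11.49, 11.49 and 11.23 in KO DRG against 10.66, 11.06 and 11.04 in littermates (log2 fold change 0.49, adjusted p = 0.00746). *Cacng2* (stargazin), an auxiliary subunit that brings AMPA receptors to the membrane, was 8.12, 7.93 and 8.19 in KO DRG and 8.31, 8.47 and 8.59 in littermates (-0.37, adjusted p = 0.014). Neither gene's groups overlapped, and for *Gabarapl1* all 6 arrays of the Nav1.7 line lay below the 12 arrays of the other lines. *Slc1a4*, a neutral amino acid transporter, rose by 0.28, and *Abat*, which breaks down GABA (-0.26), *Homer2*, a scaffold of metabotropic glutamate receptors (-0.19), and *Nsf*, an ATPase of membrane fusion that also binds AMPA receptors (-0.17), fell. None of the 76 was called by limma in either of the other lines.

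Loss of Nav1.8 gave no call among the 43 receptor genes by limma. Over all genes 3 were called (0.0165%), all of them lower. At an unadjusted p under 0.05 there were 5 receptor genes (11.6%, against 8.09% of all genes), and arrays did not overlap for 9 (20.9%, against 13.8%), 3 of them higher (6.98%, against 4.76%) and 6 lower (14%, against 9.02%). *Glrb*, the beta subunit that anchors glycine receptors to gephyrin, was 10.81, 10.73 and 10.77 in KO DRG against 10.60, 10.53 and 10.54 in littermates, with no overlap (log2 fold change 0.21, SE 0.0656, adjusted p = 0.492). It had the smallest p of the receptor genes in this line, but its other probe set, of similar brightness, gave 0.06 with overlapping arrays (10.76, 10.67 and 10.68 in KO DRG, 10.64, 10.69 and 10.61 in littermates). *Gria4*, an AMPA subunit, was 9.61, 9.31 and 9.26 in KO DRG and 9.67, 9.67 and 9.57 in littermates (-0.24, adjusted p = 0.495), and *Grik5*, a kainate subunit, was 7.33, 7.27 and 7.24 in KO DRG and 7.52, 7.40 and 7.34 in littermates (-0.14, adjusted p = 0.539). *Gria4* overlapped by 1 KO array and *Grik5* did not overlap. The mean of all probe sets of *Gria4* gave -0.03, and with the *Xist* class in the model *Gria4* was at -0.11. *Gabra2*, a GABA-A alpha subunit, had the largest fold change (0.56) and the largest SE (0.263) of the 43 in this line, with 9.06, 8.46 and 9.28 in KO DRG against 8.22, 8.29 and 8.60 in littermates. *Gabra6* (-0.18), *Grid1* (-0.21), *Glra4* (0.14), *Gabrb1* (-0.16), *Grik3* (-0.18) and *Glra3* (0.17) had adjusted p from 0.550 to 0.681, and *Grid1* was at -0.02 with the *Xist* class in the model.

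In Nav1.9 KO DRG 2 of the 43 receptor genes rose, the AMPA receptor subunits *Gria1* and *Gria2*, and 0 fell. Over all genes 0.473% were called in this line and 0.159% as higher, against 4.65% of receptor genes, and 0.313% as lower. The wider distribution did not stand apart: 5 receptor genes did not overlap (11.6%, against 18% of all genes), 3 of them higher (6.98%, against 8.7%) and 2 lower (4.65%, against 9.29%), 4 had an unadjusted p under 0.05 (9.3%, against 12.1%), and their median log2 fold change was 0.03, against 0.00 over all genes.

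*Gria2* encodes the subunit whose edited form makes AMPA receptors nearly impermeable to calcium. It was 9.07, 8.96 and 9.03 in Nav1.9 KO DRG, against 8.59, 8.71 and 8.69 in littermates. The groups did not overlap, and these KO arrays included the highest of the 18. The log2 fold change was 0.35 (SE 0.0575, adjusted p = 0.0121 from limma), which is 1.28-fold higher. In the Nav1.7 line *Gria2* was 8.96, 8.81 and 8.87 in KO DRG and 8.76, 8.68 and 8.80 in littermates (0.13, adjusted p = 0.262), and Nav1.8 KO DRG differed from its littermates by 0.05. The Nav1.7 effect minus the Nav1.9 effect was -0.22 (adjusted p = 0.180), and the Nav1.8 effect minus the Nav1.9 effect -0.31 (adjusted p = 0.335), so that a difference between lines was not shown. Of its other probe sets, 1 gave 0.16 and 1 gave -0.04 in the Nav1.9 line, neither of which passed, and the mean of all 3 did not pass (0.16, adjusted p = 0.317). Without littermate replicate 1 adjusted p was 0.062, and without KO replicate 1 it was 0.0575.

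The promoter of *Gria2* (RefSeq, GRCm38.p6, 1 start listed, minus strand of chromosome 3, chr3:80802786-80803085) is shown in the same way, for a called gene on which its probe sets differ. It holds 26 CpG dinucleotides, against a median of 7 over all windows, and 65.7% G and C, against 52.7%.
Gria2: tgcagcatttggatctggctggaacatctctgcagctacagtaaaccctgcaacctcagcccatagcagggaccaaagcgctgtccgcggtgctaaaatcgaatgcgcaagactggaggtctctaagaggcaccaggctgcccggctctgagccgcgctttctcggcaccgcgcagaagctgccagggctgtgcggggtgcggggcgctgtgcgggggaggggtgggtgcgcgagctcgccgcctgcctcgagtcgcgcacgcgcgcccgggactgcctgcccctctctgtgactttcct
None of the 5 motifs searched in *Gabrb2* is spelled in this window on either strand, so that no letter stands in capitals.

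*Gria1* encodes an AMPA subunit that is trafficked to synapses with activity. It was 7.10, 6.87 and 7.06 in Nav1.9 KO DRG, against 6.52, 6.44 and 6.23 in littermates, with no overlap. The log2 fold change was 0.61 (SE 0.128, adjusted p = 0.0498 from limma), which is 1.53-fold higher, and the dimmer probe set gave 0.57. Leaving out any single array of the line raised adjusted p above 0.05, to values between 0.0656 and 0.190. The Nav1.9 littermates were the lowest group: *Gria1* was 7.62, 7.08 and 7.20 in Nav1.7 KO DRG and 7.62, 7.29 and 7.44 in their littermates, and 7.22, 7.34 and 7.38 in Nav1.8 KO DRG and 7.53, 7.26 and 7.22 in their littermates. All 12 of these arrays lay above the 3 Nav1.9 littermates and above 2 of the 3 Nav1.9 KO arrays. At the dimmer probe set all 3 Nav1.9 KO arrays (5.45, 5.49 and 5.19) also lay below these 12. The Nav1.7 effect on *Gria1* was below the Nav1.9 effect (difference -0.76, SE 0.181, adjusted p = 0.0315), a call lost in 9 of 24 other settings.

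*Gabra5*, a GABA-A alpha subunit of extrasynaptic receptors, was next in Nav1.9 KO DRG, with 5.89, 6.29 and 6.29 against 6.57, 6.57 and 6.75 in littermates (log2 fold change -0.48, SE 0.115, adjusted p = 0.0827). The groups did not overlap, and adjusted p was 0.0476 with a trend and a robust prior. *Gria3* (0.01) and *Gria4* (-0.02) were not called, and *Grin2c* (0.20), *Gabra6* (0.15), *Gabrr2* (0.13), *Grik3* (-0.18), *Grik5* (0.07), *Glra1* (-0.07) and *Grin3a* (-0.10), next in order of p, had adjusted p from 0.357 to 0.634. All 6 metabotropic receptors were above 0, by 0.02 to 0.11, and none passed (smallest adjusted p 0.657).

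A list of 10 nerve injury genes is given beside the Nav1.9 comparison. It was chosen with earlier results of these data known, so that its counts are not a test. Of these genes (*Atf3*, *Sprr1a*, *Npy*, *Jun*, *Gal*, *Flrt3*, *Sox11*, *Gap43*, *Bdnf* and *Gpr151*), 7 fell in Nav1.9 KO DRG, against 0.313% of all genes. The list averaged 8.25 to 8.40 in Nav1.9 KO arrays, against 9.03 to 10.02 in Nav1.9 littermates. In the Nav1.7 line it averaged 8.44 to 8.68 in KO arrays and 8.20 to 8.23 in littermates, with 3 genes higher (1.81% of all genes). In the Nav1.8 line it averaged 8.16 to 8.38 in KO arrays and 8.55 to 8.74 in littermates. The 3 Nav1.9 littermate arrays, which had the lowest *Gria1* of the 18, thus had the highest values of this list. Its part in the *Gria1* and *Gria2* results was not tested. Of 174 genes within 10 Mb of *Gria2*, 8 (4.6%) were called in the Nav1.9 line, 3 higher and 5 lower, and of 224 near *Gria1*, 3 (1.34%), all higher, against 0.473% of all genes. The part of the surrounding region in these results was not tested.

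**Figure D3:**
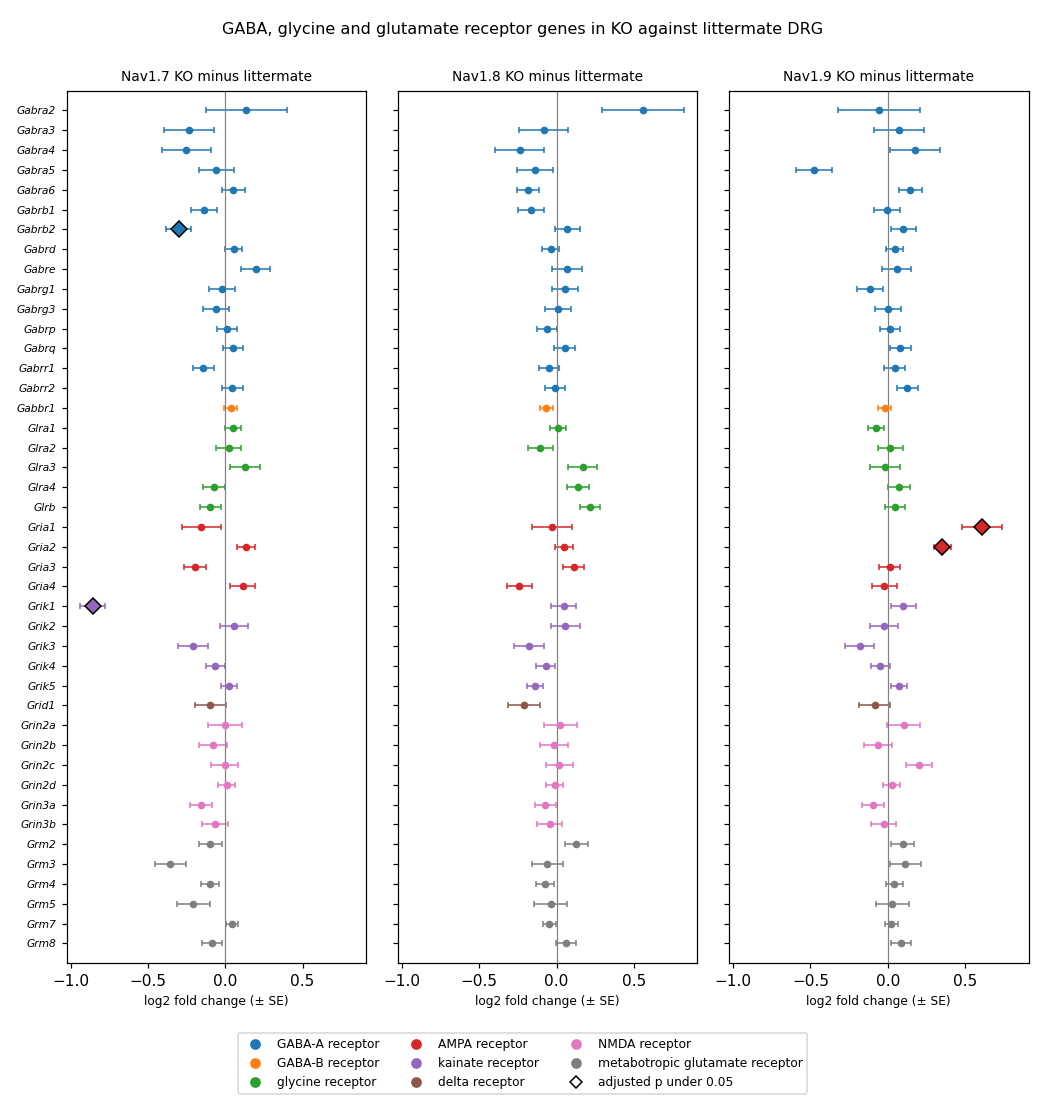
Log2 fold change of KO over littermate DRG (points, with SE as bars) for each of the 43 receptor genes in the 3 lines, coloured by receptor family. Diamonds mark the genes with an adjusted p under 0.05, *Grik1* and *Gabrb2* in Nav1.7 KO and *Gria1* and *Gria2* in Nav1.9 KO DRG.

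Across the lines, most receptor genes differed little between KO and littermate DRG. *Grik3* was below 0 in all 3 lines, at -0.21 in Nav1.7, -0.18 in Nav1.8 and -0.18 in Nav1.9 KO DRG, and passed in none. It was 7.12, 7.26 and 7.21 in Nav1.7 KO DRG against 7.53, 7.35 and 7.34 in littermates, and 7.32, 7.29 and 7.26 in Nav1.8 KO DRG against 7.61, 7.40 and 7.40 in littermates. These groups did not overlap, whereas those of the Nav1.9 line did. The 6 measured NMDA subunits had log2 fold changes from -0.16 (*Grin3a*, Nav1.7) to 0.20 (*Grin2c*, Nav1.9) over the 3 lines. Those of the 4 glycine receptor alpha subunits were within 0.17 of 0. The alpha subunits lay at the 12.4th percentile of brightness or below, and in all 23 of the 43 genes were under the 40th percentile. *Gabbr1* (95.6th percentile), *Grik1* (93.6th), *Grm7* (89.7th) and *Glrb* (88.7th) were read from bright probe sets, and *Gabbr1* and *Grm7* varied by no more than 0.33 over the 18 arrays.

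More receptor genes were called between the littermates of different lines than between KO and littermates. Among littermates alone, 12 of 43 receptor genes (27.9%) were called between Nav1.7 and Nav1.8, 8 (18.6%) between Nav1.7 and Nav1.9 and 6 (14%) between Nav1.8 and Nav1.9, against 23.3%, 12.2% and 12.8% of all genes. By direction, 8 were higher and 4 lower in Nav1.7 than in Nav1.8 littermates (7.96% and 15.4% of all genes), 6 higher and 2 lower in Nav1.7 than in Nav1.9 littermates (4.76% and 7.45%), and 3 higher and 3 lower in Nav1.8 than in Nav1.9 littermates (7.5% and 5.3%). In all 16 receptor genes were called in at least 1 of these comparisons. Line, genetic background and batch cannot be told apart here. All Nav1.7 littermates were high in *Xist* and all other littermates low, so that the *Xist* class goes with the line in the comparisons with Nav1.7 but is the same in Nav1.8 and Nav1.9 littermates. With the *Xist* class in the model, which the KO arrays then inform, 3 of 12, 1 of 8 and 6 of 6 calls passed, and 14 of the 26 passed without each single array.

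*Gabra2* was 9.51, 9.44 and 9.98 in Nav1.7 littermates, 8.22, 8.29 and 8.60 in Nav1.8 littermates and 9.62, 8.88 and 9.20 in Nav1.9 littermates. The Nav1.8 littermates were the low group and did not overlap with the others. The Nav1.7 littermates were above the Nav1.8 littermates by 1.27 (adjusted p = 0.00304), and the Nav1.8 littermates below the Nav1.9 littermates by a difference of -0.86 (adjusted p = 0.0427, up to 0.172 without single arrays). *Gabra2* also had the largest spread within a group of the 43 genes (SD 0.576, in Nav1.9 KO DRG). Another bright probe set gave differences of 0.95 and -0.93, which passed, and a further one 0.56 and -0.48, which did not (adjusted p over probe sets = 0.0724 and 0.158).

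*Gabra3*, an X-linked GABA-A alpha subunit, was low in the whole Nav1.7 line at its brighter probe set. It was 6.04, 5.61 and 5.66 in Nav1.7 KO DRG and 6.22, 6.29 and 5.51 in their littermates, against 6.53 to 6.97 in the 12 arrays of the other lines. The 6 arrays of the Nav1.7 line thus all lay below the other 12. Its littermates differed by -0.88 from the Nav1.8 littermates (adjusted p = 0.00127) and by -0.66 from the Nav1.9 littermates (adjusted p = 0.0134). *Grik4*, a kainate subunit of high affinity, was likewise low in the Nav1.7 line, with 7.33, 7.36 and 7.15 in Nav1.7 littermates, 7.58, 7.59 and 7.59 in Nav1.8 littermates and 7.66, 7.55 and 7.59 in Nav1.9 littermates (-0.31, adjusted p = 0.00268, and -0.32, adjusted p = 0.00318). With the *Xist* class in the model neither *Grik4* call passed (adjusted p = 0.0914 and 0.0940 from limma). The *Gabra3* call then passed against Nav1.8 (0.0184) but not against Nav1.9 littermates (0.0644). The *Gabra3* probe set used was at the 37.4th percentile of brightness. A still dimmer one did not show the lower level. It averaged 4.89 in Nav1.7 KO DRG, and 4.75, 4.73 and 4.70 in Nav1.7, Nav1.8 and Nav1.9 littermates.

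*Gria1* was 7.62, 7.29 and 7.44 in Nav1.7 littermates and 7.53, 7.26 and 7.22 in Nav1.8 littermates, with no overlap with the 6.23 to 6.52 of the Nav1.9 littermates (differences 1.05, adjusted p = 7.15e-05, and 0.94, adjusted p = 0.000833). Both calls passed without each single array and with the *Xist* class in the model (adjusted p = 0.0147 and 0.000695). *Gabrb2* was 8.51, 8.51 and 8.77 in Nav1.7 littermates, above the 8.22 to 8.40 of Nav1.8 and the 8.18 to 8.26 of Nav1.9 littermates (0.31, adjusted p = 0.0122, and 0.39, adjusted p = 0.00587). At this brightest probe set the Nav1.7 KO arrays were 8.46, 8.16 and 8.27. Their range took in that of the littermates of the other lines and went past it on both sides. With the *Xist* class in the model neither *Gabrb2* call passed (adjusted p = 0.261 and 0.166 from limma). Without single arrays the call against Nav1.8 passed in 4 of 6 fits and that against Nav1.9 in 6 of 6. The Nav1.7 littermates were the group that stood apart at the brightest probe set. This did not hold at the *Gabrb2* probe set that passed over all probe sets. At that one the Nav1.7 littermates (8.19, 8.05 and 8.28) overlapped with the Nav1.8 littermates (7.99, 8.09 and 7.94). Its KO mean (7.79) was the lowest of the groups. For *Gria1* the Nav1.9 littermates were the lowest group, but the Nav1.9 KO arrays were low too at the dimmer probe set. For *Grik1* the KO group stood apart at the brightest probe set, and no pair of littermate groups was called.

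*Gabrg1*, a GABA-A gamma subunit, and *Glrb* were lower in Nav1.8 than in the other littermates. *Gabrg1* was 9.11, 8.88 and 9.23 in Nav1.7, 8.76, 8.75 and 8.56 in Nav1.8 and 9.15, 8.96 and 9.10 in Nav1.9 littermates (Nav1.7 over Nav1.8 0.38, adjusted p = 0.00453, and Nav1.8 over Nav1.9 -0.38, adjusted p = 0.00908). *Glrb* differed by 0.30 (adjusted p = 0.00427) and by -0.24 (adjusted p = 0.0278). Its other probe set, of similar brightness, averaged 10.76 in Nav1.7, 10.64 in Nav1.8 and 10.72 in Nav1.9 littermates, with overlapping arrays. The metabotropic receptors *Grm7* and *Grm8*, which reduce transmitter release, were both higher in Nav1.7 than in Nav1.8 littermates, by 0.12 (adjusted p = 0.0429) and 0.34 (adjusted p = 0.00185), and than in Nav1.9 littermates, by 0.19 (adjusted p = 0.00659) and 0.25 (adjusted p = 0.0185). Of these, the *Grm7* call against Nav1.8 was lost without any 1 of the 6 arrays, the *Grm8* call against Nav1.9 passed in 2 of 6 such fits, and none of the 4 passed once the *Xist* class was added as a term. A dimmer probe set of *Grm7* did not show the difference, with means of 6.31 in Nav1.7, 6.34 in Nav1.8 and 6.29 in Nav1.9 littermates. The other calls, *Gria2*, *Gria3*, *Gria4*, *Grik5*, *Grm3*, *Grm4* and *Gabrr1*, were of 0.16 to 0.37 log2 units. Probe sets disagreed for *Gria4* too: the brightest was lower in Nav1.7 than in Nav1.8 littermates (-0.27), and a dimmer one was higher (0.61, adjusted p over probe sets = 0.00137).

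**Figure D4:**
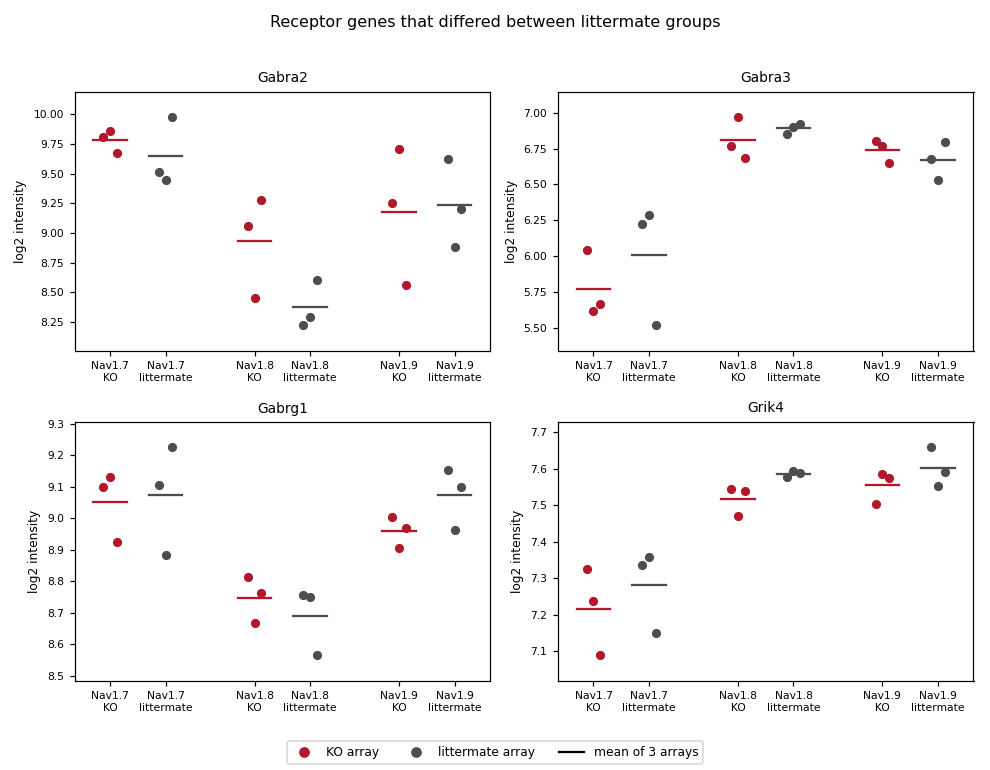
Log2 intensity of *Gabra2*, *Gabra3*, *Gabrg1* and *Grik4* on each array (points) with the mean of 3 arrays (bars), by group; the axes differ between panels. At the probe sets shown, *Gabra3* and *Grik4* were low in both groups of the Nav1.7 line. *Gabrg1* was low in both groups of the Nav1.8 line, and *Gabra2* was lowest in Nav1.8 littermates.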

How the data were processed

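The authors used Affymetrix Expression Console and deposited a table of log2 intensities with 1 value for each probe set on 18 arrays. The summary and normalization method is not given in the sources used here. The range of the values fits a log2 scale. Titles and genotypes gave the groups, since the source names call every sample a littermate control. The 64 control probe sets were left out, and 0 columns were unused. Of 45037 probe sets, 34945 were named for 1 gene, 932 for several and 9160 were not listed in the platform annotation, and each of the 18193 genes was read from its brightest probe set.

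The 6 group means were fitted with limma 3.58.1 in R 4.3.3 (12 residual and 3.44 prior degrees of freedom), with Benjamini-Hochberg adjustment over all genes and no filter on dim probe sets. The fit was tested on simulated data. Receptor genes named per line are those called and, up to 10, those of smallest p, with partner genes that were called; genes that differed between littermates and probe sets that disagreed were picked out once their values had been seen. The members, the gene lists and the nerve injury genes were chosen with earlier results of these data known. Replicate numbers were checked for pairing: same-numbered KO and littermate arrays correlated at -0.194 to 0.266, so that they were not treated as pairs. Alternatives were other normalizations, filters, probe set rules, priors, array weights, the *Xist* class, a replicate block, analysis of variance, other thresholds and leaving out each array. Motifs were searched as letters in RefSeq promoters.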

Additional observations from a re-analysis of the deposited data

Results flagged for a closer look

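The effect of KO on *Grik1* differed between lines by the test of the difference itself: Nav1.7 minus Nav1.8 was -0.90 (adjusted p = 0.000409 from limma) and Nav1.7 minus Nav1.9 was -0.96 (adjusted p = 0.000184), with *Grik1* lower in 3 of 3 Nav1.7 KO arrays than in every littermate array. The effect on *Gria1* differed between Nav1.7 and Nav1.9 by -0.76 (adjusted p = 0.0315), with *Gria1* higher in 3 of 3 Nav1.9 KO arrays than in every Nav1.9 littermate array. With 3 arrays a group, single arrays were not tested as outliers. Near-floor readings of the dimmer *Grik1* probe set in 3 of 6 Nav1.9 line arrays, and the unequal readings of the *Gabbr1* and *Gria4* probe sets, are other values to look at again, and their cause was not tested.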

How the results depend on the processing

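For the single genes followed in KO comparisons and differences of effects, no direction reversed in any setting tried. Single genes between littermates were not followed in this way. The other probe sets of a gene were not read singly for this count. Some had the opposite direction, such as the dimmest of *Gria2* in the Nav1.9 line. For single genes 580 results stayed on their side of the threshold, 44 lost their call and 6 gained one. In Nav1.7 KO DRG 2 receptor genes were called, and 1 with median centring, without probe sets that can cross-hybridize, with the line fitted alone, with array weights, with a replicate block or at an unadjusted p under 0.01 with a fold change over 1.5, and 0 with analysis of variance on 6 arrays, where *Grik1* had an adjusted p of 0.0677. In Nav1.9 KO DRG 2 were called, and 1 with median centring, the mean of all probe sets, each probe set on its own, a replicate block or those thresholds, and 0 with the line fitted alone or analysis of variance. Differences of effects gave 2 in place of 1 (Nav1.7 and Nav1.8, lines fitted alone), 1 in place of 2 (Nav1.7 and Nav1.9, lines fitted alone or array weights) and 1 in place of 0 (Nav1.8 and Nav1.9, those thresholds). Between littermates the *Xist* term gave 4 calls in place of 12 (Nav1.7 and Nav1.8; 3 of them among the 12) and 1 in place of 8 (Nav1.7 and Nav1.9), and those thresholds 2 in each of the 3 pairs. Counts also went up: to 3 in Nav1.7 KO DRG with the mean of probe sets, each probe set on its own or a trend and robust prior, to 3 in Nav1.9 KO DRG with that prior, to 3 for Nav1.7 and Nav1.9 effects without dim probe sets, and to 11 (Nav1.7 and Nav1.9) and 9 (Nav1.8 and Nav1.9) between littermates with each probe set on its own.

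Leaving out 1 array gave 1 to 2 receptor genes in Nav1.7 and 0 to 1 in Nav1.9 KO DRG, 0 in Nav1.8 KO DRG, 1 to 2, 1 to 3 and 0 for the differences of effects, and 7 to 10, 5 to 8 and 3 to 6 between littermates. Arrays were not treated as pairs by replicate number. The check of these numbers did not set differently numbered arrays beside them, so that it cannot exclude pairing. With the replicate block 1 gene stayed called in Nav1.7 (*Grik1*) and 1 in Nav1.9 KO DRG (*Gria2*), with *Gabrb2* at an adjusted p of 0.0917 and *Gria1* at 0.0615. Without detection calls the signal over background of dim probe sets is not known.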
